A study of Mus musculus with 20 samples.

Results

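The kynurenine pathway enzymes described here are the 9 genes Ido1, Ido2, Tdo2, Afmid, Kmo, Kynu, Haao, Acmsd and Aadat. They were chosen by name from the 35204 genes in the table of estimated counts per gene. The study sequenced poly-A RNA from the ileum of 20 female C57Bl6 mice that were 7 weeks old and were then fed for 3 weeks, with 5 mice in each of 4 groups. CD mice received a control amino acid diet with tryptophan (Trp) and TDD mice the same diet without Trp, and both remained specific pathogen-free (SPF). CD+ABX and TDD+ABX mice received the same diets together with ABX, a cocktail of ampicillin, vancomycin, metronidazole, neomycin and gentamycin in the drinking water, which depletes the gut bacteria of mice that were already colonised. The antibiotic water also held sucrose for palatability, which the study's methods do not mention for SPF mice. In every comparison of ABX, the antibiotics and the sucrose therefore cannot be told apart. The study also reports marked weight loss in mice on TDD, which was milder in those given ABX. Lack of Trp and weight loss therefore cannot be told apart in the comparisons of diet. Each library was made from 0.5 cm of whole ileal wall cut 2 cm from the caecum, so that epithelium, immune cells and muscle were sequenced together. In such tissue, fewer cells of a type and less RNA per cell cannot be told apart.

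The kynurenine pathway is the main route by which mammalian cells degrade Trp. Its first step opens the indole ring to give N-formylkynurenine, which is hydrolysed to kynurenine. From there one branch, through 3-hydroxykynurenine and 3-hydroxyanthranilate, leads to quinolinate and NAD, and other branches end in kynurenate or in complete oxidation. In the gut, Ido1 is known as an enzyme that interferon-γ induces in myeloid and epithelial cells, whereas Tdo2 is the Trp-degrading enzyme of the liver.

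The 9 genes lie on 6 chromosomes of GRCm38 in the GENCODE M21 annotation. Ido1 (chromosome 8, 24584136 to 24597009, minus strand) and its paralog Ido2 (24531892 to 24576333, minus strand) are neighbours separated by 7802 bases. Aadat (60505932 to 60545677, plus strand) lies on the same chromosome. Kmo (175620381 to 175662116) and Acmsd (127729413 to 127767978) are both on the plus strand of chromosome 1. Kynu lies on chromosome 2 (43555329 to 43682715, plus strand), Tdo2 on chromosome 3 (81957090 to 81976202, minus strand), Afmid on chromosome 11 (117825924 to 117839908, plus strand) and Haao on chromosome 17 (83831156 to 83847963, minus strand). Afmid overlaps Tk1, Kmo overlaps Fh1 and Acmsd overlaps 2900009J06Rik on the opposite strand. Whether the counting used strand is not given in the sources used here, so reads from these partners may not be separated. Afmid also overlaps the protein-coding Gm20708 on its own strand, from which strand could not separate it, so its values are uncertain to that extent.

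The transcripts behind the counts differed among the members. The counts of Ido1 came almost entirely from the protein-coding transcript Ido1-201, which held 98.05% of them over the 20 mice, and Haao had a single transcript, Haao-201, in the files. Kmo-201 held 71.84% of the Kmo counts, Kynu-201 held 81.52% of the Kynu counts and Afmid-201 held 73.62% of the Afmid counts. By contrast, every count assigned to Acmsd fell on Acmsd-202, a processed transcript without an annotated protein, and the protein-coding Acmsd-201 was at 0 in all 20 mice. The protein-coding Aadat-201 was also at 0 in all 20 mice, but a second coding transcript, Aadat-202, held 64.11% of the few Aadat counts (4.487 estimated counts over the 20 mice). The bases that lie just before the start of a coding transcript with many counts (Kmo-201) and of one at 0 (Aadat-201) are shown, from the promoter windows of RefSeq on GRCm38.p6, in 5′ to 3′ direction on the plus strand, up to the base before the first exon.
Kmo-201, chr1:175631943-175631995: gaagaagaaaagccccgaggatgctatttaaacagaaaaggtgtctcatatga
Aadat-201, chr8:60505874-60505931: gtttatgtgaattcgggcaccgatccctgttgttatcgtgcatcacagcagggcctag
RefSeq windows of 250 bases before to 50 bases after the start site were used for 5 of the 9 genes, namely Tdo2, Afmid, Kmo, Haao and Aadat. These 5 windows were searched on both strands for TTCNNNGAA, the gamma-activated site of interferon-γ signalling, for the interferon-stimulated response element, taken as a pair of GAAA runs with any 2 bases between them, and for GCGTG, the core of the aryl hydrocarbon receptor (AhR) element. None held TTCNNNGAA or the response element, which occurred in 8.3% and 3.44% of all 32851 windows, so 5 windows are too few to show a lack. Ido1 was not among the genes searched. GCGTG was present in the windows of Tdo2 and Haao, and in 32.4% of all windows. No match of one motif overlapped that of another, and the stretches shown hold none, so no letters are in capitals. A match is a run of letters and was not tested for binding.

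Depth was similar in the 4 groups, from 36676963 to 58662617 estimated counts per mouse. Epithelial markers were abundant in every mouse, with Vil1 at 2490 CPM or more (the count per 1e6 counts of the library after TMM scaling). However, 2 defining genes of the ileum were low in SPF mice. The bile acid binding protein Fabp6 ranged from 0.238 to 3.91 CPM and the bile acid transporter Slc10a2 from 1.38 to 8.8 CPM in the 10 SPF mice, against 2.65 to 144 and 13.2 to 86.1 CPM in the 10 ABX-treated mice. Within SPF mice, Slc10a2 ranged from 1.38 to 3.89 CPM in CD and from 3.69 to 8.8 CPM in TDD mice. Fabp6 ranged from 0.319 to 2.42 CPM and from 0.238 to 3.91 CPM in these groups. Whether the same segment was sampled in all 4 groups was not tested, so a difference in segment between the diets was not tested either. In every comparison of ABX a difference in segment and the effect of ABX cannot be told apart. In addition, 7 mice stood apart in summed B cell and follicle markers (52.8 to 118 CPM, against 4.1 to 19.5 in the other 13), 4 mice carried liver transcripts (Alb 10.9 to 14.9 CPM, against at most 0.168 elsewhere) and CD mouse 5 carried pancreatic Cpa1 (23.3 CPM). CD mouse 2 had the lowest sum of ileal enterocyte markers, at 11500 CPM against 18500 to 29900 CPM in the other 19 mice, and the highest sum of smooth muscle markers, at 2510 CPM.

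Ordered by TPM, a level that corrects for transcript length, summed over the transcripts of a gene, Afmid was the most abundant of the 9 genes in each group. Afmid encodes arylformamidase, which hydrolyses N-formylkynurenine to kynurenine, and its level ranged from 12.7 ± 0.811 TPM in CD+ABX mice to 14.7 ± 1.43 TPM in TDD mice (SD, n = 5). Ido1 came second, at 11.8 ± 6.98 TPM in CD, 4.16 ± 1.46 in TDD, 8.72 ± 2.88 in CD+ABX and 3.04 ± 0.714 in TDD+ABX mice (SD, n = 5 each). The ranges of Afmid and Ido1 overlapped in both CD-fed groups and were apart in both TDD-fed groups. The sum for Afmid includes the retained-intron transcripts Afmid-202, Afmid-203, Afmid-204 and Afmid-206. Its main coding transcript, Afmid-201, had means of 7.163 (CD), 7.755 (TDD), 6.027 (CD+ABX) and 6.244 TPM (TDD+ABX). Means of the coding Ido1-201 were 11.6, 4.027, 8.606 and 2.935 TPM, above those of Afmid-201 in both CD-fed groups. Ido1 overlapped the next gene, Haao, in TDD mice, and did not overlap the next gene, Kmo, in the other 3 groups. Kmo, Kynu and Haao followed at group means between 0.383 and 2.39 TPM, and their order differed between groups: Haao was the highest of these 3 in TDD mice, at 2.39 ± 1.24 TPM, and the lowest in CD+ABX mice, at 0.383 ± 0.103 TPM (SD, n = 5). In CD, TDD and TDD+ABX mice neighbours among these 3 overlapped, whereas in CD+ABX mice Kynu (0.96 ± 0.113 TPM) did not overlap Haao. Tdo2, Acmsd, Ido2 and Aadat had group means of 0.207 TPM or less, and neighbours among them overlapped. The highest of them did not overlap the gene above it, except in CD+ABX mice, where Tdo2 overlapped Haao.

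**Figure D1:**
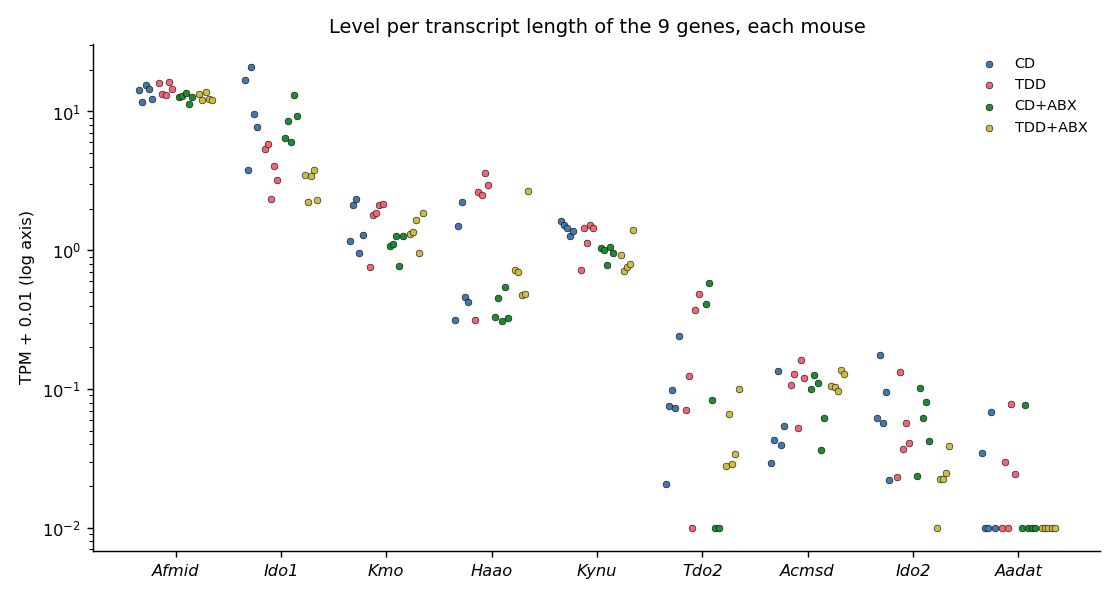
TPM of each of the 9 kynurenine pathway genes in each of the 20 mice, plotted on a log axis after adding 0.01 so that mice at 0 can be drawn at the bottom. Afmid and Ido1 lie highest, Kmo, Haao and Kynu about 1 TPM, and Tdo2, Acmsd, Ido2 and Aadat lowest, with Aadat at 0 in all 5 TDD+ABX mice.

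A filter of 0.5 CPM, reached in any 1 mouse, left 6 of the 9 members (Ido1, Tdo2, Afmid, Kmo, Kynu and Haao) among 16306 genes tested with edgeR's quasi-likelihood test. Here q is the p-value adjusted over these genes by the method of Benjamini and Hochberg, and a call required q under 0.05 together with a 2-fold change. TDD against CD called 1 member in SPF mice, where 1.83% of all genes tested were called, and 1 member in ABX-treated mice, where 0.307% were called. In both settings this member was Ido1. ABX called no member on CD (2.25% of all genes) or on TDD (1.63%), and the interaction of diet and ABX called none (0.0245%). Among these 6 genes, 2 had an unadjusted p under 0.05 in edgeR for ABX on CD (26.5% of all genes), 4 for ABX on TDD (30.5%) and 1 for the interaction (8.87%). At q under 0.05 without the fold limit, ABX on CD had 1 member (12.6% of all genes), ABX on TDD had 2 (15.4%) and the interaction had 0 (0.0368%). These comparisons share mice, since each group enters more than 1 of them.

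Ido1 encodes indoleamine 2,3-dioxygenase, the first and rate-limiting enzyme of Trp degradation outside the liver. In CD mice 1 to 5 its level was 18.4, 3.98, 22.7, 11 and 8.69 CPM, and in TDD mice 1 to 5 it was 6.48, 6.69, 2.61, 4.82 and 3.62 CPM. CD mice were thus higher than TDD mice apart from CD mouse 2, which lay within the TDD range and stood apart in its markers, so that Ido1 was not among the 9.58% of genes whose groups did not overlap. Mean levels were 13 ± 7.54 CPM in CD mice against 4.84 ± 1.77 CPM in TDD mice (SD, n = 5). In edgeR, Ido1 was lower on TDD at -1.42 on the log2 scale (standard error 0.37, q = 0.0157). Without CD mouse 2 it was -1.66 (q = 0.0017, edgeR). The call rested in part on CD mouse 3, the highest of all, without which the log2 fold change was -1.12 (q = 0.0532, edgeR), and q was 0.0747 when both groups were fitted alone. With the 4 mice carrying liver transcripts left out it was -1.31 (q = 0.126, edgeR). These 4 mice are all in the TDD and CD+ABX groups, so that here and below fewer mice enter the test without them. Over all genes, those at q under 0.05 for diet in SPF mice then fell from 2342 to 1000 (edgeR).

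With ABX the difference in Ido1 between the diets had the same direction and a similar size. CD+ABX mice 1 to 5 had 7.06, 9.21, 6.53, 14.6 and 11 CPM of Ido1, and TDD+ABX mice 1 to 5 had 3.91, 2.48, 3.6, 3.98 and 2.37 CPM. Every CD+ABX mouse was above every TDD+ABX mouse, a separation shown by 4.78% of all genes tested. Mean levels were 9.68 ± 3.28 CPM in CD+ABX mice against 3.27 ± 0.782 CPM in TDD+ABX mice (SD, n = 5). EdgeR gave -1.57 on the log2 scale, with a standard error of 0.38 and q = 0.0415. The fold change stayed between -1.68 and -1.38 on the log2 scale when any 1 mouse was left out, but q rose to between 0.0503 and 0.118 without any of the 10 ABX-treated mice or without CD mouse 4, TDD mouse 2 or TDD mouse 4. It was 0.101 without the 4 mice carrying liver transcripts, at a log2 fold change of -1.71.

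No effect of ABX on Ido1 passed the test. The log2 fold change with ABX was -0.42 on CD (95% interval -1.13 to 0.29, q = 0.52, edgeR) and -0.56 on TDD (-1.3 to 0.18, q = 0.327, edgeR). The difference between the diet effects with and without ABX was -0.14 (95% interval -1.16 to 0.88, q = 0.965, edgeR). Ido1 was lower on TDD in both settings, and a difference between these settings was not detectable with 5 mice a group.

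**Figure D2:**
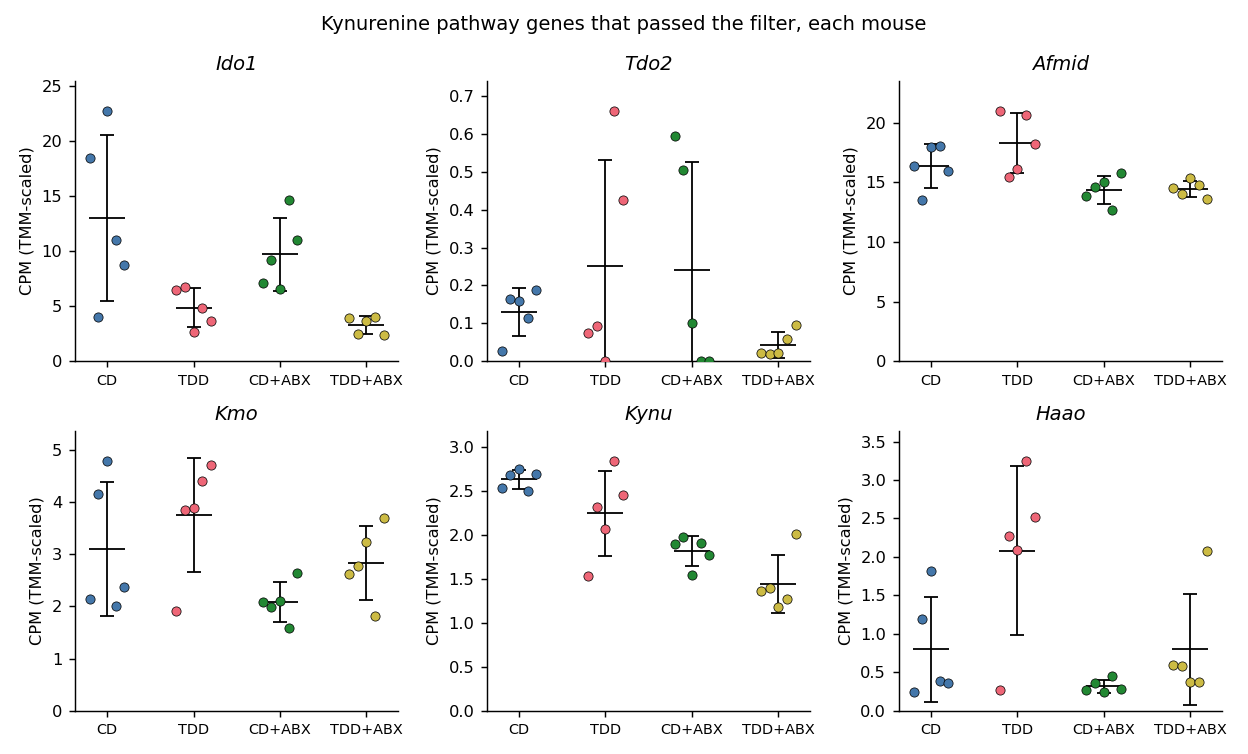
CPM of the 6 members that passed the filter, with 1 point per mouse and a bar at the group mean ± SD (n = 5, lower bars cut at 0). Ido1 is lower in the TDD and TDD+ABX groups, Kynu is lower in both ABX groups, and Haao, Kmo and Tdo2 vary widely between mice of the same group.

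The genes whose levels followed Ido1 most closely were Dram2 (Pearson r 0.91), Appl1, Rtn4r, Abhd3 and Olfr1416 (r 0.88 each), measured on log2(CPM + 0.5) over the 20 mice and 14047 genes with a mean of at least 1 CPM. These mice share the group differences, and after subtracting group means the same correlations were 0.81 for Dram2, 0.74 for Appl1, 0.82 for Rtn4r, 0.79 for Abhd3 and 0.64 for Olfr1416. Within single groups the lowest correlation was 0.57 for Dram2 and 0.55 for Rtn4r, while Appl1, Abhd3 and Olfr1416 were negatively correlated with Ido1 in at least 1 group. They are given as a description only.

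Interferon-γ is the best-known inducer of Ido1, and a list of 12 genes of its receptor, signalling and target genes was examined next. In SPF mice 4 of the 11 genes tested were lower on TDD at q under 0.05 and none was higher, where 7.71% of all genes were lower and 6.65% higher. The T cell attracting chemokine Cxcl9 fell from a mean of 8.24 to 2.7 CPM (-1.6 on the log2 scale, standard error 0.23, q = 0.000164 in edgeR) and its relative Cxcl10 from 3.37 to 0.986 CPM (-1.76, standard error 0.35, q = 0.00253, edgeR). The interferon-induced GTPase Gbp2 fell from 21 to 14.6 CPM (-0.53, q = 0.000276, edgeR). The remaining gene, named after its value was seen, was the transcription factor Irf1 (-0.39, q = 0.0229, edgeR). The median log2 fold change of the 11 genes was -0.14, against 0.01 over all genes tested.

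With ABX, none of these 11 genes passed q under 0.05 between the diets in edgeR (0.626% of all genes were higher and 1.02% lower), 3 had an unadjusted p under 0.05 (14.7% of all genes), and their median log2 fold change was -0.13. Cxcl9 had a log2 fold change of -0.89 (q = 0.053), Cxcl10 of -0.91 (q = 0.21) and Gbp2 of -0.28 (q = 0.0794, edgeR). None of the 11 passed the interaction test, where Cxcl9 had a difference of 0.72 (q = 0.51, edgeR). ABX on CD lowered 2 of the 11 and raised none (7.37% and 5.26% of all genes), namely Cxcl9 (-0.99, q = 0.00719) and Gbp2 (-0.28, q = 0.0263, edgeR), while Ido1 did not pass. The transcript of interferon-γ itself, Ifng, did not reach the filter and had at most 10 counts in any mouse.

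**Figure D3:**
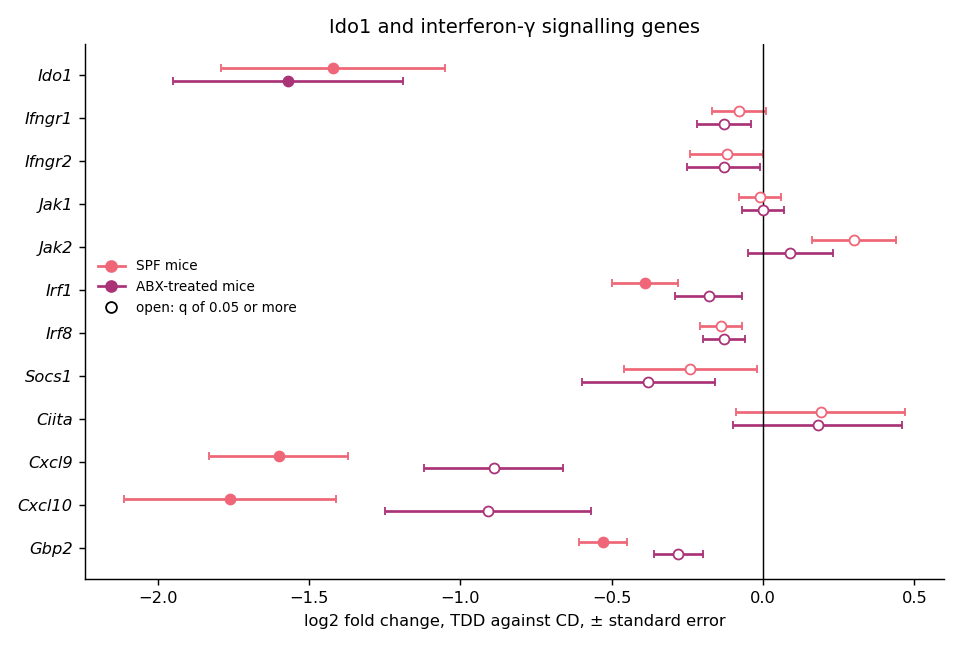
Log2 fold change between TDD and CD, with standard errors, of Ido1 and of the 11 tested genes of interferon-γ signalling, in SPF and in ABX-treated mice (filled points have q under 0.05). Ido1 is filled in both settings, whereas Irf1, Cxcl9, Cxcl10 and Gbp2 are filled in SPF mice alone, and the interaction was at q = 0.05 or more for each.

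The other 2 genes of the first step were scarce. Ido2, a paralog of Ido1 with low catalytic activity, had 0 to 9 counts in every mouse, with 16, 16, 20 and 5 counts in all over the CD, TDD, CD+ABX and TDD+ABX groups. Of its counts, 52.59% were assigned to the processed transcript Ido2-204. Ido2 did not reach the filter and was not tested.

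Tdo2, tryptophan 2,3-dioxygenase, reached 0.5 CPM only in TDD mouse 4 and in CD+ABX mice 1 and 2. CD mice 1 to 5 had 1, 7, 8, 5 and 9 counts and TDD mice 1 to 5 had 3, 4, 0, 24 and 25 counts. CD+ABX mice 1 to 5 had 27, 21, 5, 0 and 0 counts, and TDD+ABX mice 1 to 5 had 1, 1, 1, 3 and 4 counts. The 4 mice with more than 20 counts were TDD mice 4 and 5 and CD+ABX mice 1 and 2. These were the same 4 mice that carried Alb, the albumin transcript of liver, at 10.9 to 14.9 CPM. Their Tdo2 level was 0.425 to 0.661 CPM, against 0 to 0.189 CPM in the other 16, whose Alb level was at most 0.168 CPM. Of all genes searched, Alb was also the most alike to Tdo2 over the 20 mice (r 0.93), a correlation that rests on these 4 mice. No comparison of Tdo2 passed, and its log2 fold changes ranged from -2.48 for ABX on TDD (q = 0.135) to 0.88 for diet in SPF mice (q = 0.594, edgeR). The interaction of -3.27 had an unadjusted p of 0.0376 from edgeR and q = 0.514, and without these 4 mice Tdo2 no longer reached the filter.

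Afmid, the second step, differed little between mice. It ranged from 13.5 to 18.1 CPM in CD mice, from 15.5 to 21 in TDD mice, from 12.7 to 15.8 in CD+ABX mice and from 13.6 to 15.4 in TDD+ABX mice. No diet effect on it passed, with a log2 fold change of 0.16 in SPF mice (95% interval -0.02 to 0.34, q = 0.275) and 0 in ABX-treated mice (-0.18 to 0.19, q = 0.99, edgeR). With ABX on TDD it was lower, at 14.5 ± 0.681 against 18.3 ± 2.54 CPM (SD, n = 5), at -0.34 on the log2 scale (standard error 0.09, q = 0.0191 in edgeR). The highest TDD+ABX mouse was below the lowest TDD mouse, and 11% of all genes separated in this comparison. This change was under 2-fold and so not called, in a comparison where 8.22% of all genes were lower and 7.14% higher at q under 0.05. On CD the corresponding change was -0.19 (q = 0.204, edgeR), and the interaction was -0.15 (q = 0.798, edgeR). The change on TDD had q = 0.0539 without TDD mouse 4, 0.0525 without TDD+ABX mouse 1 and 0.178 without the 4 mice carrying liver transcripts.

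Kynu encodes kynureninase, which cleaves kynurenine and 3-hydroxykynurenine. In CD mice 1 to 5 it stood at 2.53, 2.68, 2.75, 2.5 and 2.69 CPM, and in CD+ABX mice 1 to 5 at 1.9, 1.97, 1.54, 1.91 and 1.77 CPM. All CD mice were above all CD+ABX mice, and 9.74% of all genes tested separated these groups in either direction. The log2 fold change was -0.54 (standard error 0.15, q = 0.0281, edgeR). This q rose to between 0.0529 and 0.0739 without CD mouse 3, CD mouse 5, CD+ABX mouse 3 or CD+ABX mouse 5, and was 0.0585 without the 4 mice carrying liver transcripts.

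On TDD, Kynu was again lower with ABX. TDD mice 1 to 5 had 1.53, 2.32, 2.07, 2.84 and 2.45 CPM and TDD+ABX mice 1 to 5 had 1.36, 1.4, 1.18, 1.27 and 2.01 CPM. These groups overlapped, because TDD mouse 1 was low and TDD+ABX mouse 5 was high. The log2 fold change was -0.63 (standard error 0.16, q = 0.0119, edgeR), and -0.43 with q = 0.142 without the 4 mice carrying liver transcripts. Neither change of Kynu with ABX reached 2-fold. Diet changed Kynu by -0.23 in SPF mice (q = 0.344) and by -0.33 in ABX-treated mice (q = 0.332, edgeR).

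**Figure D4:**
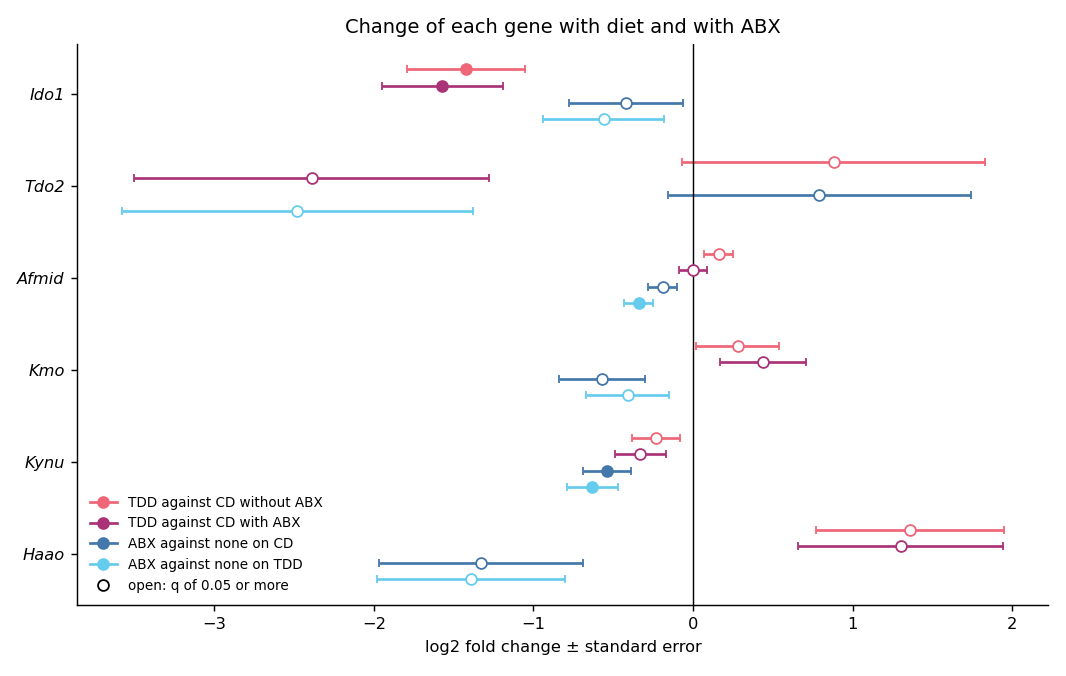
Log2 fold change with its standard error for the 6 tested members in 4 comparisons, diet without and with ABX and ABX on CD and on TDD (filled points have q under 0.05). Filled points are Ido1 for both diet comparisons, Kynu for both ABX comparisons and Afmid for ABX on TDD. Haao, Kmo and Tdo2 have no filled point.

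Levels of Kynu went with those of several immune cell genes. The genes most alike to it were Lyz2 and Unc93b1 (r 0.93 each), Ccdc88b (r 0.91) and Cd74 and H2-Eb1 (r 0.9 each), of which Lyz2 is lysozyme of myeloid cells and Cd74 and H2-Eb1 belong to antigen presentation by class II molecules. This search, and those for Kmo, Haao and Tdo2, were added after the values were seen, and Lyz2 is itself among the macrophage markers. After subtracting group means, the correlations with Kynu were 0.84 for Lyz2 and 0.74 to 0.78 for the other genes. Within single groups the lowest were -0.15 for Lyz2, -0.52 for Unc93b1, 0.12 for Ccdc88b, -0.63 for Cd74 and -0.56 for H2-Eb1. Summed over 8 macrophage and monocyte markers, the level ranged over 216 to 282 CPM (CD), 120 to 218 CPM (TDD), 149 to 170 CPM (CD+ABX) and 119 to 155 CPM (TDD+ABX). None of the 8 was at 0 in any group. Of the 8 markers, 7 were lower with ABX on CD, 3 with ABX on TDD and 5 with TDD in SPF mice at q under 0.05 (edgeR). The corresponding shares of all genes were 7.37%, 8.22% and 7.71%. Other immune markers were lower with ABX too: of 8 T and NK cell markers, 6 on CD and 4 on TDD (medians of -1.44 and -0.85 on the log2 scale), and of 8 dendritic cell markers, 3 on each diet. The macrophage sum did not overlap between CD and CD+ABX mice, so that it cannot be told apart from ABX on CD. Its median was also lower on TDD, at 208 against 256 CPM in SPF and 130 against 163 CPM in ABX-treated mice, so that it is only partly separable from diet. In a fit with this sum as a covariate, chosen after seeing the data, genes at q under 0.05 fell from 2060 to 514 for ABX on CD and from 2505 to 1659 for ABX on TDD (edgeR). For diet, genes called rose from 298 to 432 in SPF mice, although those at q under 0.05 fell from 2342 to 1507. In ABX-treated mice, genes called for diet rose from 50 to 175 (edgeR). The log2 fold change of Kynu with ABX on TDD was then -0.24 (q = 0.351), and that of Ido1 with diet was -1.72 (q = 0.0343) in SPF and -1.78 (q = 0.0314, edgeR) in ABX-treated mice. The part of any of these cells in the change of Kynu was not tested.

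Kmo and Haao lie on the branch towards quinolinate, kynurenine 3-monooxygenase making 3-hydroxykynurenine and 3-hydroxyanthranilate 3,4-dioxygenase opening the ring of its product. Haao varied widely within groups. It stood at 0.248, 1.19, 1.82, 0.39 and 0.358 CPM in CD mice 1 to 5 and at 0.276, 2.27, 2.09, 3.25 and 2.52 CPM in TDD mice 1 to 5. Thus 4 of the 5 TDD mice exceeded all CD mice, and TDD mouse 1 was as low as the lowest CD mice. In CD+ABX mice 1 to 5 it was 0.265, 0.36, 0.246, 0.448 and 0.283 CPM, and in TDD+ABX mice 1 to 5 it was 0.599, 0.581, 0.372, 0.378 and 2.08 CPM. The CD+ABX and TDD+ABX groups overlapped, and TDD+ABX mouse 5 stood far above the rest. The log2 fold change with TDD was 1.36 in SPF mice (standard error 0.59, q = 0.134) and 1.3 in ABX-treated mice (standard error 0.64, q = 0.354), and with ABX it was -1.33 on CD (q = 0.193) and -1.39 on TDD (q = 0.119, edgeR). None passed the test, although without TDD mouse 1 the diet effect in SPF mice had q = 0.043 (log2 fold change 1.64, edgeR), and without TDD mouse 1 or TDD+ABX mouse 5 the effect of ABX on TDD had q = 0.0395 or 0.0204 (log2 fold changes of -1.67 and -2.09, edgeR).

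Kmo followed a similar order of mice at a smaller amplitude. It stood at 2.15, 4.16, 4.79, 2 and 2.38 CPM in CD mice 1 to 5, and at 1.91, 3.85, 3.89, 4.4 and 4.71 CPM in TDD mice 1 to 5. The same mice, CD 2 and 3 and TDD 2 to 5, were high in both genes. In CD+ABX mice Kmo ranged from 1.58 to 2.64 CPM and in TDD+ABX mice from 1.81 to 3.69 CPM, with TDD+ABX mouse 5 the highest. No comparison of Kmo passed, the nearest being ABX on CD (log2 fold change -0.57, standard error 0.27, q = 0.176, edgeR), and its diet effects were 0.28 (q = 0.538) and 0.44 (q = 0.476, edgeR).

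The levels of both genes went with those of B cell and follicle markers. The 7 mice with the highest sum of 6 such markers (Ms4a1, Cd79a, Cr2, Fcer2a, Cxcl13 and Gp2) were CD mice 2 and 3, TDD mice 2, 3, 4 and 5 and TDD+ABX mouse 5. These were also the 7 mice highest in Haao, at 1.19 to 3.25 CPM against 0.246 to 0.599 CPM in the other 13, and the 7 highest in Kmo, at 3.69 to 4.79 CPM against 1.58 to 3.23 CPM. The 7 highest mice for Kynu and for Afmid included 4 of these each, and those for Ido1 included 1. By group the sum ranged from 6.13 to 79.2 CPM in CD, from 4.57 to 118 in TDD, from 4.3 to 7.17 in CD+ABX and from 4.1 to 82 CPM in TDD+ABX mice, and no marker was at 0 in a whole group.

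Single B cell genes gave the same picture. Over the 20 mice the genes most alike to Haao were Cxcr5, Siglecg, Tnfrsf13c, Cacna1i and H2-Eb2 (r 0.98 each), and those most alike to Kmo were Cd22, Rubcnl and H2-Eb2 (r 0.93 each) and Blk and Tspan32 (r 0.92 each). Cxcr5 is the chemokine receptor that guides B cells into follicles, Tnfrsf13c the receptor for the B cell survival factor BAFF, Cd22 an inhibitory receptor of B cells and Blk a kinase of the B cell receptor pathway. Haao and Kmo each kept these correlations after group means were subtracted, from 0.96 to 0.98 for Haao and from 0.9 to 0.91 for Kmo, but within single groups the lowest values for Haao ran from -0.4 to 0.46. These correlations rest on 7 high and 13 low mice and are a description.

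With the B cell and follicle sum as a covariate, also chosen after seeing the data, the changes of Haao with diet were 0.49 in SPF (q = 0.12) and 0.22 in ABX-treated mice (q = 0.783, edgeR), and with ABX they were 0.12 on CD and -0.15 on TDD. Those of Kmo lay between -0.09 and 0.14 in the same 4 comparisons. With the macrophage sum as covariate instead, Haao had diet effects of 2.94 (q = 0.00348) and 2.24 (q = 0.0223), and Kmo of 0.94 (q = 0.0336) and 0.87 (q = 0.0433, edgeR), larger than with the B cell covariate. That sum was only partly separable from diet, and over all genes more were called for diet with it than without it. For Ido1, the B cell sum as covariate gave -1.35 in SPF (q = 0.0341) and -1.51 in ABX-treated mice (q = 0.0763, edgeR). Whether these cells carried the transcripts was not tested.

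**Figure D5:**
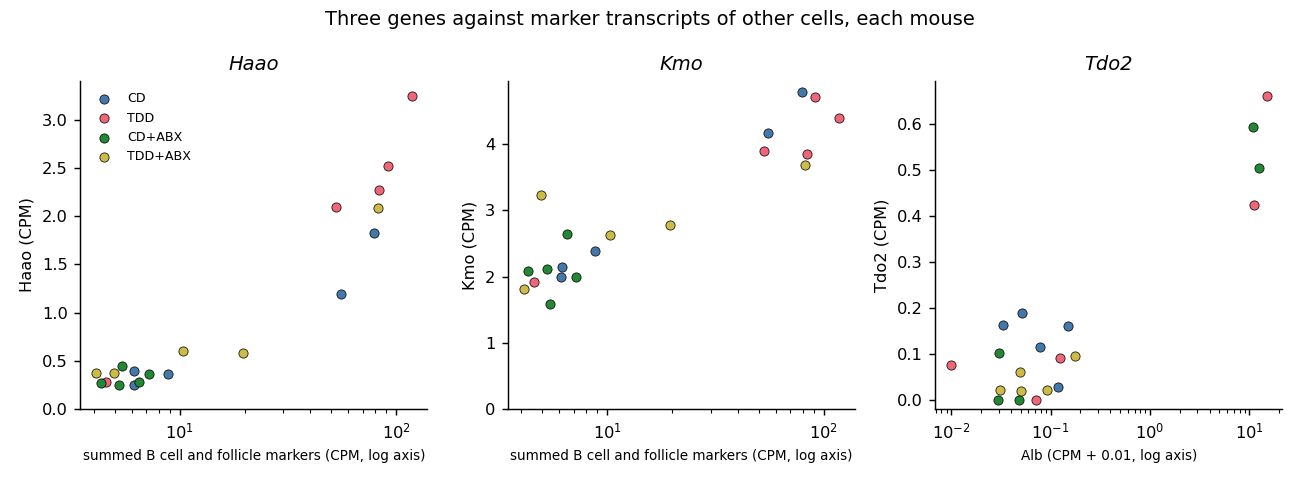
Haao and Kmo plotted against the summed B cell and follicle markers, and Tdo2 against Alb, with 1 point per mouse (CPM, log horizontal axes). The 7 mice with marker sums of 52.8 CPM or more have the highest Haao and Kmo, and the 4 mice with Alb of 10.9 CPM or more have the highest Tdo2.

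The enzymes that divert intermediates to other ends were near the limit of detection. Acmsd, which turns the precursor of quinolinate towards complete oxidation, had 1 to 10 counts per mouse, with group sums of 17, 36, 26 and 36 counts in CD, TDD, CD+ABX and TDD+ABX mice, all on the noncoding Acmsd-202. Aadat, an aminotransferase that makes kynurenate, had 0 to 2 counts per mouse, and 2, 3, 2 and 0 counts by group. Neither reached the filter. For a mouse at 0, the depth allows up to 3 counts, so low expression cannot be told from none, and these limits cover counting error only.

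The share of each gene's TPM held by its main transcript was compared for Ido1, Afmid, Kmo and Kynu in the 4 diet and ABX comparisons. Of 16 exact permutation tests (two-sided, smallest possible p 0.00794), 2 had an unadjusted p under 0.05 and none an adjusted p under 0.05, the smallest being 0.254. Afmid-201 held 52.8% ± 3.13 of Afmid on CD and 47.6% ± 1.85 with ABX (SD, n = 5; exact permutation p = 0.0159, adjusted 0.254), and Kynu-201 held 80.8% ± 9.73 of Kynu in CD+ABX and 60.8% ± 15 in TDD+ABX mice (SD, n = 5; exact permutation p = 0.0397, adjusted 0.317). With 5 mice a group, 1 test alone could not reach an adjusted p below 0.127, so that the missed threshold says little. Ido1-201 held between 96.8% and 98.6% of Ido1 in each group mean.

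Other steps around kynurenine and NAD were examined next. Of 14 further genes for kynurenate, glutarate and NAD synthesis, all tested, 2 were higher on TDD in SPF mice at q under 0.05 and 2 in ABX-treated mice, where 6.65% and 0.626% of all genes were, and none was lower. Their medians were 0.22 and 0.07 on the log2 scale, against 0.01 and 0 over all genes. Kyat3, a kynurenine aminotransferase that makes kynurenate as Aadat does, was higher on TDD in both settings, with a log2 fold change of 0.44 in SPF (q = 0.00373, from 7.76 to 10.5 CPM) and 0.37 in ABX-treated mice (q = 0.0471, from 7.79 to 10 CPM, edgeR). Its groups did not overlap in either setting, a separation shown by 9.58% and 4.78% of all genes. The change in ABX-treated mice kept q under 0.05 in 5 of 13 alternatives and with 5 of the 20 mice left out in turn, and had q = 0.0962 without the 4 mice carrying liver transcripts. The second gene was Nampt, of NAD salvage, in SPF mice (0.38, q = 0.0106) and the aminotransferase Kyat1 with ABX (0.64, q = 0.0415, edgeR), both named after their values were seen. The change of Kyat1 kept q under 0.05 in 8 of 13 alternatives. With ABX, Aldh8a1, a dehydrogenase of the oxidation branch, was higher on CD (0.66, q = 0.00922), and Nmnat3, which completes NAD synthesis, was lower on CD (-0.6, q = 0.00453) and on TDD (-0.54, q = 0.00941, edgeR). Qprt, which consumes quinolinate, was lower with ABX on TDD (-0.82, q = 0.04, edgeR), a change that kept q under 0.05 in 7 of 13 alternatives, and is likewise named after its value was seen. None of these changes reached 2-fold.

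Among 6 genes for other uses of Trp, 5 were tested, and 1 passed, being lower on TDD in SPF mice, as were 7.71% of all genes. Ddc, the decarboxylase that makes serotonin and tryptamine, fell on TDD in SPF mice from 169 to 91.4 CPM (log2 fold change -0.89, standard error 0.12, q = 9.25e-05, edgeR), and had a change of -0.46 with ABX (q = 0.0501, edgeR). Of 8 carriers of Trp and kynurenine, 2 were higher on TDD without ABX (6.65% of all genes) and 1 with ABX (0.626%). The apical neutral amino acid transporter Slc6a19 rose on TDD in SPF mice from 444 to 738 CPM (0.73, q = 0.0204) and with ABX on CD to 1090 CPM (1.29, q = 0.000754, edgeR), and was higher with ABX on TDD (0.64, q = 0.0389, edgeR). Slc36a4, a high-affinity Trp transporter, rose on TDD in SPF mice (0.45, q = 0.0117) and fell with ABX on TDD (-0.41, q = 0.0212, edgeR). Slc7a5, the transporting light chain of the LAT1 exchanger, rose on TDD in ABX-treated mice from 7.2 to 18.8 CPM (1.38, standard error 0.27, q = 0.0152, edgeR), and had 0.43 (q = 0.322) in SPF mice. It also rose with ABX on TDD (1.29, q = 0.00535, edgeR), from 7.67 CPM. Without the 4 mice carrying liver transcripts the diet effect with ABX was 1.33 (q = 0.0832) and the effect of ABX on TDD 1.56 (q = 0.0182, edgeR). The fourth carrier past the threshold, Slc3a2, the heavy chain of LAT1, was higher with ABX on CD (0.41, q = 0.0142, edgeR) and is named after its value was seen. The interaction for Slc7a5 was 0.95 (q = 0.448, edgeR), so the diet effects were not shown to differ.

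Kynurenine and kynurenate are ligands of AhR and Gpr35, and 8 genes of these receptors and of AhR targets were examined. On TDD in SPF mice 1 was higher and 2 lower at q under 0.05, where 6.65% and 7.71% of all genes were. These were Nqo1 (0.45, q = 0.00946), a quinone reductase, and the feedback regulators Tiparp (-0.31, q = 0.0219) and Ahrr (-0.63, q = 0.0333, edgeR), the last named after its value was seen. None of the 8 passed between the diets with ABX, and 2 had an unadjusted p under 0.05 in edgeR (14.7% of all genes). With ABX on CD 3 were lower (7.37% of all genes), among them Tiparp (-0.35, q = 0.0119, edgeR). With ABX on TDD 1 was lower (8.22% of all genes), the cytochrome P450 Cyp1b1 (-1.18, standard error 0.27, q = 0.00803, edgeR), which fell from 5.87 to 2.59 CPM. Without the 4 mice carrying liver transcripts Cyp1b1 had -1.14 (q = 0.05, edgeR), and it fell short of 2-fold with the B cell covariate (-0.99, edgeR) and on log2(TPM + 1) (-0.54, limma). The other 2 that were lower with ABX on CD, Ahrr (-0.65, q = 0.032) and Cyp1a1 (-3.08, q = 0.0227, edgeR), are named after their values were seen, and Cyp1a1 had means of only 0.366 and 0.0399 CPM. Cyp1a1 kept q under 0.05 in 4 of the 10 alternatives that tested it, with q = 0.12 without the 4 mice carrying liver transcripts (edgeR), and lost it without CD mouse 2, CD mouse 3 or CD+ABX mouse 3.

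These 5 further lists held 11, 14, 5, 8 and 8 tested genes in each comparison. Over all genes, 7.71% were lower and 6.65% higher at q under 0.05 for diet in SPF mice. With ABX the shares for diet were 1.02% and 0.626%. For ABX, 12.6% of all genes passed on CD and 15.4% on TDD. Across the lists 30 changes had q under 0.05, counting a gene once per comparison. Of these, 18 kept q under 0.05 with each single mouse left out in turn, and 13 kept it without the 4 mice carrying liver transcripts, among them Cxcl9, Cxcl10, Gbp2 and Ddc on TDD in SPF mice, Nmnat3 with ABX on both diets and Slc6a19 with ABX on CD. Leaving these 4 mice out cut all genes at q under 0.05 for diet from 2342 to 1000 (SPF) and from 268 to 108 (ABX-treated). For ABX it cut them from 2060 to 1153 on CD and from 2505 to 1130 on TDD (edgeR). The part of liver transcripts and that of smaller groups in a lost q cannot be told apart.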

How the data were processed

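Reads came from poly-A RNA of ileum (Illumina NovaSeq), and the authors ran kallisto 0.44.0 against the GRCm38 mouse transcriptome. The authors deposited expected counts per gene, without normalization, and TPM per transcript for each mouse. How transcripts were summed to genes is not given in the sources used here. Counts were rounded, scaled by TMM and tested with edgeR 4.0.16 (quasi-likelihood, robust; R 4.3.3) on 16306 genes with at least 0.5 CPM in 1 mouse, with the 4 groups in 1 fit; the study named iDEP.91 but no test, and its limits of q under 0.05 and 2-fold were kept. All 20 mice were used, although the study text gives fewer. DESeq2 1.42.0 and limma 3.58.1 were alternatives, and the test was checked on simulated data. Transcripts were matched by identifier to GENCODE M21 (98.38% matched), and TPM was summed per gene. Shares of transcripts were compared with exact permutation tests. Members and gene lists were chosen with earlier results of these data known. From each further list at most 3 genes with the smallest q were named, with exceptions stated. A few listed genes and 1 promoter window are not reported here and enter no count or sum. Mice are taken as replicates as labelled, and housing was not given, so p-values measure the spread between these mice.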

Additional observations from a re-analysis of the deposited data

Results flagged for a closer look

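In groups of 5 mice, the highest or lowest mouse was marked where its gap to the nearest other mouse exceeded Dixon's 95% critical value relative to the range. Of 35 groups checked over the members, 4 held such a mouse, where chance gives about 1 in 20. TDD+ABX mouse 5 had 2.01 CPM of Kynu (the other 4 mice 1.18 to 1.4 CPM) and 2.08 CPM of Haao (the others 0.372 to 0.599 CPM), and it was also the TDD+ABX mouse with the highest B cell and follicle markers, at 82 CPM, whose part in these values was not tested. CD mouse 3 had 0.18 CPM of Acmsd, from 9 counts, against 0.0276 to 0.0632 CPM in the other CD mice. CD+ABX mouse 2 had 0.048 CPM of Aadat, from 2 counts, where the other 4 mice were at 0.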

How the results depend on the processing

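The number of members called on TDD in SPF mice was 1, and it became 0 with both groups fitted alone or without the 4 mice carrying liver transcripts, and 2 (Ido1 and Haao) with the macrophage markers as covariate. In ABX-treated mice the number was 1, and it became 0 with no filter, limma-voom, log2(TPM + 1), log2(TPM + 0.1), the B cell covariate or without those 4 mice, and 2 (Ido1 and Haao) with the macrophage covariate. With no fold change limit, ABX on CD gave 1 (Kynu) and ABX on TDD gave 2 (Afmid and Kynu). With single mice left out, 0 to 2 members were called on TDD in SPF mice (0 without CD mouse 3, 2 without TDD mouse 1), 0 to 1 in ABX-treated mice, and 0 to 1 for ABX on TDD (Haao, without TDD mouse 1 or TDD+ABX mouse 5). The cause of these changes was not tested.

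Replicate numbers did not pair the mice: over 30 same-numbered pairs the median correlation of deviations was -0.0313, 5 exceeded 0.1, and 1 of 20 mice correlated best with its own number. With the replicate number as a block, the number called on TDD in ABX-treated mice was 0 (Ido1 -1.61, q = 0.0813, edgeR), and the numbers called in the other 4 comparisons did not change.

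These log2 fold changes, none past the threshold in the main test, changed sign. With limma-voom, Tdo2 had -0.1 for diet in SPF mice and -0.82 for ABX on CD. With the B cell covariate, Kmo had -0.06 for diet in SPF mice and 0.1 for ABX on TDD, and Haao 0.12 for ABX on CD. With the macrophage covariate, Kynu had 0.12 for diet in SPF mice, Afmid -0.06 for diet with ABX, Kmo 0.39 and 0.32 for ABX on CD and on TDD and -0.06 for the interaction, and Haao 1.18 and 0.48 for ABX on CD and on TDD. Without the 4 mice carrying liver transcripts, Afmid had -0.01 for diet with ABX, and Kynu and Haao had 0.15 and 0.34 for the interaction. On the TPM scales, Kynu had 0.09 and 0.13 for the interaction.

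With 1 mouse left out, the sign changed for Afmid for diet with ABX (-0.04 to 0.04) and for the interactions of Ido1 (-0.44 to 0.11), Kmo (-0.05 to 0.3) and Haao (-0.76 to 0.16). Shares changed sign for Ido1-201 in SPF mice with diet (-2.01 to 0.535 percentage points), with ABX on CD (-0.178 to 2.37) and on TDD (-0.761 to 0.84), for Afmid-201 with diet (-0.809 to 1.34 in SPF, -0.302 to 2.97 with ABX), for Kmo-201 with diet (-4.7 to 0.881 and -5.99 to 0.645) and for Kynu-201 with ABX on CD (-3.37 to 3.49). Depth limits Ido2, Acmsd, Aadat and Tdo2, with at most 27 counts in a mouse.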
